A study of Mus musculus with 8 samples.

Results

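The 10 genes described here encode the PGC-1, ERR and PPAR regulators of mitochondrial and fat metabolism together with the nuclear factors NRF1, GABPA and TFAM. They were chosen by name, as Ppargc1a, Ppargc1b, Esrra, Esrrb, Esrrg, Nrf1, Gabpa, Tfam, Ppara and Ppard. All 10 were found among the 18114 genes obtained by summing the deposited transcript values, through 41 of the 51169 transcripts in the table. The study compared hearts (the labels give the tissue as heart and the genotype as WT) of mice in a project on the aging heart. There were 4 sedentary and 4 swimming libraries, numbered as biological replicates 1 to 4. The labels used here give no age, sex, strain, swimming schedule, time since the last swim or part of the heart. They do not say that each library came from a separate mouse, so the p-values measure the spread between these samples, which may be technical.

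PGC-1 alpha and PGC-1 beta are coactivators without a DNA-binding domain of their own. They dock on nuclear receptors, mainly the estrogen-related receptors (ERR) and the peroxisome proliferator-activated receptors (PPAR), and on NRF1 and the GABP complex, and raise transcription of genes for oxidative phosphorylation, the citric acid cycle and fatty acid oxidation. TFAM, encoded in the nucleus, enters mitochondria, where it packages mitochondrial DNA and helps start its transcription. In heart muscle this circuit sets the capacity for fat oxidation, and Ppargc1a RNA is known to respond to exercise in skeletal muscle of mice and humans.

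Values are FPKM, fragments scaled by transcript length and library size, which the authors deposited per transcript. Scaling by length allows an approximate comparison of levels between genes. Some genes were listed unevenly, as described below for mitochondrial DNA, so ranks of level are approximate. Between groups, 0 of the 10 regulators passed the test (limma on log2(FPKM + 0.5), with an adjusted p below 0.05 over 11667 genes), against 0.0171% of all genes tested, which is 2 genes. Adjusted p-values of the 10 ranged from 0.702 for Esrrg to 0.989 for Ppargc1b. Swimming and sedentary libraries overlapped in each of the 10, while the groups did not overlap in 4.83% of all genes tested. A count of 0 of 10 is near both backgrounds, and the intervals below give the differences that remain possible. At an unadjusted p below 0.05 there were also 0 of 10, against 7.36% of all genes, 4.93% with higher and 2.43% with lower means in swimming hearts.

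FPKM totals ranged from 210413 to 235461 per library, and absolute sequencing depth is unknown. All 12 ventricular cardiomyocyte markers were above a mean of 1 FPKM, with a summed level between 9175 and 10510 FPKM. Sedentary replicate 4 held RNA of liver genes, with 47.1 FPKM summed over 8 hepatocyte markers against 0.931 to 2.25 FPKM elsewhere. It also held fat genes, with Cfd at 12.0 FPKM (at most 0.668 elsewhere) and Adipoq at 2.80 FPKM (at most 0.139 elsewhere). The sum over 9 macrophage markers, all above a mean of 1 FPKM, was 175.6 to 183.9 FPKM in sedentary and 213.2 to 238.1 FPKM in swimming libraries, without overlap. The part of these differences in the values below was not tested. In RNA of heart tissue, fewer cells of a type and less RNA per cell cannot be told apart.

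The 10 genes spanned a 6.79-fold range of mean level over the 8 libraries, from Esrra at 24.8 FPKM to Ppargc1b at 3.65 FPKM. Esrra lay above 91.2% of the genes tested and Ppara, at 12.6 FPKM, above 81.6%. Tfam followed at 8.60 FPKM, Gabpa at 6.55, Esrrg at 5.59, Ppargc1a at 5.38, Esrrb at 4.48, Nrf1 at 4.35 and Ppard at 4.14 FPKM. Esrra exceeded Ppara, and Ppara exceeded Tfam, in 7 of 8 libraries each. The order was not separated beyond the spread in the middle of the list: Gabpa exceeded Esrrg in 5 of 8 libraries, Ppargc1a exceeded Esrrb in 4 of 8 and Esrrb exceeded Nrf1 in 4 of 8. Ppard exceeded Ppargc1b in 7 of 8 libraries.

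**Figure D1:**
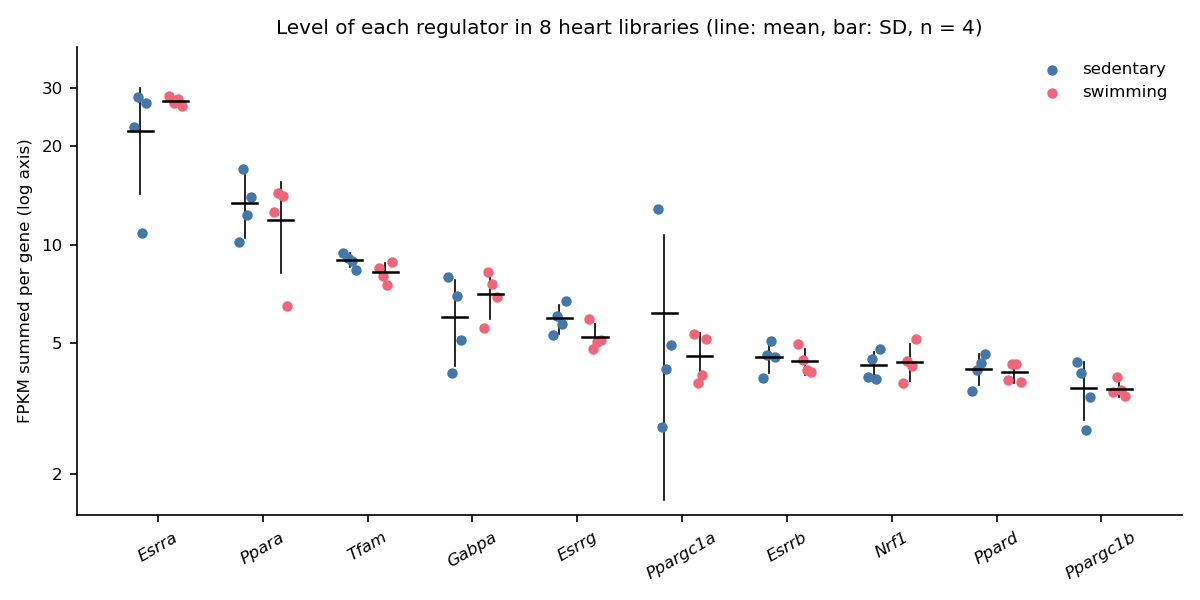
FPKM summed per gene (log axis) for the 10 regulators in each of 8 libraries, with sedentary libraries in blue and swimming libraries in red, a line at the mean and a bar of 1 SD (n = 4). Esrra is highest and Ppargc1b lowest, and single libraries stand apart for Ppargc1a (12.8 FPKM in sedentary replicate 1), Esrra (10.9 FPKM in sedentary replicate 3) and Ppara (6.49 FPKM in swimming replicate 4).

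The coactivator gene Ppargc1a (ENSMUSG00000029167, chromosome 5, 51454250 to 51567726, minus strand, build mm10) was listed at 12.8, 2.78, 4.18 and 4.93 FPKM over the sedentary libraries (replicates 1 to 4) and at 5.36, 3.79, 4.01 and 5.15 FPKM over the swimming libraries. Sedentary replicate 1 stood well above the other 7 libraries, and the remaining values of both groups were interleaved. The means were 6.18 ± 4.51 FPKM in the sedentary group and 4.58 ± 0.793 FPKM in the swimming group (SD, n = 4 per group). The log2 fold change, swimming over sedentary, was -0.20 (95% interval -1.11 to 0.71, limma adjusted p = 0.919). Without sedentary replicate 1 it turned to 0.20 (limma adjusted p = 0.782), so that the sign of the difference rested on that library. The spread within groups, an SD of 0.629 on the log2 scale, was larger than that of 92.3% of the genes tested, whose median was 0.165.

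The listed transcripts of Ppargc1a start at 2 places in the annotation. Ppargc1a-203, with 797 codons, and Ppargc1a-201 start 51 bases apart at the downstream place. Ppargc1a-204 and Ppargc1a-202 start about 13.8 kb upstream of it. Both Ppargc1a-201 and Ppargc1a-204 are annotated as targets of nonsense-mediated decay. Over all libraries Ppargc1a-204 had a mean of 0.382 FPKM and Ppargc1a-202 of 0.0057 FPKM. An alternative upstream promoter of mouse Ppargc1a is known to respond to beta-adrenergic signals and exercise in skeletal muscle. Transcripts of that start held 0.308 to 0.535 FPKM in 7 libraries and 0.00242 FPKM in sedentary replicate 1. In those 7 libraries that was 7.48% to 12.8% of the gene sum. With sedentary replicate 1 included the means were 0.337 ± 0.244 FPKM in sedentary hearts and 0.440 ± 0.0468 FPKM in swimming hearts (SD, n = 4 per group). Without it the sedentary values were 0.308, 0.535 and 0.502 FPKM, on both sides of the swimming ones. The mean lay below the 0.5 FPKM required for testing. The downstream start thus carried at least 87.2% of the Ppargc1a sum in every library.

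The window around that upstream start, chr5:51567676-51567975 on the minus strand (250 bases before and 50 from the start onwards, RefSeq, GRCm38.p6, the same build as mm10), is shown because its transcripts were nearly absent from sedentary replicate 1.

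Ppargc1a upstream start: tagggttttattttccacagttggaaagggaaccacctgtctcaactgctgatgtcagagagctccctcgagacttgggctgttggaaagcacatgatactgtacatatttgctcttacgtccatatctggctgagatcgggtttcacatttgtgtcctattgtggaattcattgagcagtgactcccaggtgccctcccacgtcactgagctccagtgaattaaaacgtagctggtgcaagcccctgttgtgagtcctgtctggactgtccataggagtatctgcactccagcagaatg

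Sedentary replicate 1 differed from the rest in how the Ppargc1a sum was made up. Ppargc1a-203 was listed at 12.8 FPKM there, and the other 7 libraries gave 1.44 to 3.13 FPKM. Ppargc1a-201 was at 0 FPKM there and at 1.03 to 2.08 FPKM elsewhere, and Ppargc1a-204 was at 0 FPKM there and at 0.305 to 0.529 FPKM elsewhere. Ppargc1a-203 shares 3010 of the bases of Ppargc1a-201, which is 98.98% of that shorter transcript. In the other 7 libraries Ppargc1a-203 held 51.0% to 63.5% of the gene sum. The transcripts of Ppargc1a did not pass singly (limma adjusted p = 0.921 for Ppargc1a-203 and 0.879 for Ppargc1a-201).

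The related coactivator gene Ppargc1b (ENSMUSG00000033871, chromosome 18, 61298136 to 61400431, minus strand) was at 4.40, 4.07, 2.72 and 3.44 FPKM over the sedentary libraries (replicates 1 to 4) and at 3.55, 3.94, 3.61 and 3.47 FPKM over the swimming libraries. The swimming values lay inside the range of the sedentary ones. The means were almost equal, 3.66 ± 0.744 against 3.64 ± 0.209 FPKM (SD, n = 4 per group), with a log2 fold change of 0.01 (95% interval -0.29 to 0.32, limma adjusted p = 0.989). Ppargc1b-202 held 75.8% to 95.8% of the sum. Ppargc1a was higher than Ppargc1b in 6 of 8 libraries, with ratios from 0.683 in sedentary replicate 2 to 2.91 in sedentary replicate 1.

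**Figure D2:**
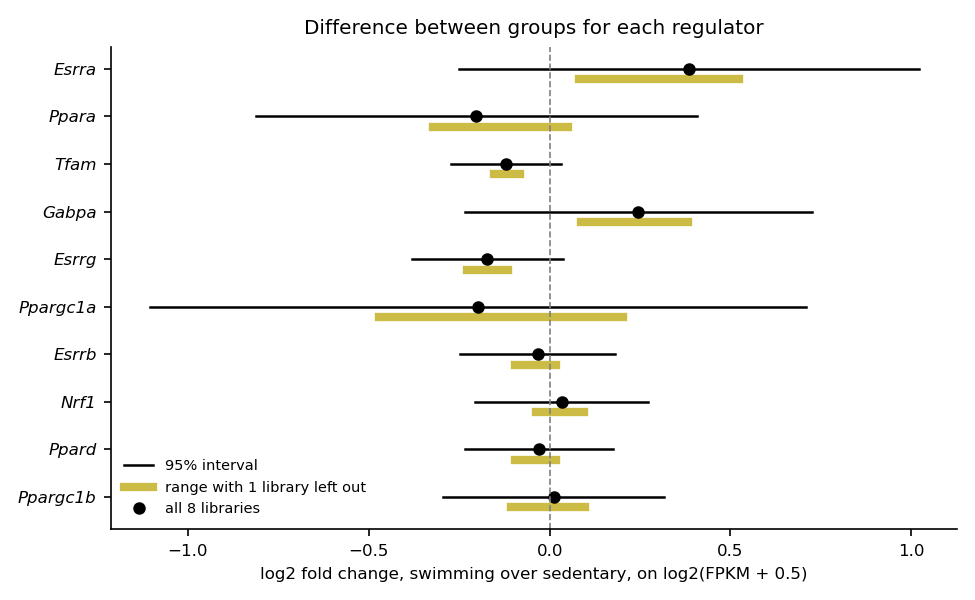
Log2 fold change of each regulator, swimming over sedentary (points, all 8 libraries), with its 95% interval (black line) and the range obtained when 1 library at a time was left out (yellow bar). All 10 intervals include 0, and that of Ppargc1a is the widest, from -1.11 to 0.71.

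The ERR genes encode orphan nuclear receptors that bind the same response element and carry much of the PGC-1 effect on respiratory genes. Esrra (ENSMUSG00000024955, chromosome 19, 6910977 to 6921813, minus strand) was at 22.8, 28.1, 10.9 and 27.0 FPKM over the sedentary libraries (replicates 1 to 4) and at 28.3, 27.1, 27.8 and 26.4 FPKM over the swimming libraries. Sedentary replicate 3 was far below the other 7, which covered a narrow range. The means of 22.2 ± 7.89 and 27.4 ± 0.83 FPKM (SD, n = 4 per group) gave a log2 fold change of 0.38 (95% interval -0.25 to 1.02, limma adjusted p = 0.772). Without sedentary replicate 3 it was 0.08 (limma adjusted p = 0.825).

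The low Esrra sum lay in a single transcript. Esrra-201, which encodes 422 codons, was at 0.178 FPKM in sedentary replicate 3, against 16.2 to 21.2 FPKM elsewhere. Esrra-205, a 727-base transcript whose exons lie wholly inside those of Esrra-201, was at 9.97 FPKM in that library and at 6.52 to 8.10 FPKM elsewhere. Neither transcript passed (limma adjusted p = 0.879 for Esrra-201 and 0.992 for Esrra-205). Exons of Esrra share 73 bases with Trmt112 on the opposite strand. Trmt112 was at 3.18 FPKM in sedentary replicate 3, inside its range of 1.01 to 3.96 FPKM.

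Esrrb (ENSMUSG00000021255, chromosome 12, 86361117 to 86521628, plus strand), best known for its role in pluripotent mouse cells, was detected in all 8 libraries. It was at 3.91, 4.62, 5.07 and 4.55 FPKM over the sedentary libraries (replicates 1 to 4) and at 4.98, 4.45, 4.15 and 4.09 FPKM over the swimming libraries. The 2 groups covered nearly the same range, with means of 4.54 ± 0.476 and 4.42 ± 0.404 FPKM (SD, n = 4 per group) and a log2 fold change of -0.03 (95% interval -0.25 to 0.18, limma adjusted p = 0.948).

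Behind this even sum, the starts of Esrrb stood apart in 1 library. Esrrb-204 starts 60.5 kb upstream of Esrrb-203 and Esrrb-202, which share a start. A further start, that of Esrrb-206, held 1.10% to 5.90%. The upstream start held 8.74% to 14.0% of the Esrrb sum in 7 libraries and 65.35% in swimming replicate 4. There Esrrb-204 was at 2.68 FPKM against 0.398 to 0.694 FPKM elsewhere, and Esrrb-203 was at 0.503 FPKM against 2.46 to 3.76 FPKM elsewhere. Esrrb-203 and Esrrb-204 share 3875 bases, 90.1% of Esrrb-204, and differ in 321 and 425 bases of their own. The other 3 swimming libraries resembled the sedentary ones, and the starts did not pass in a test of all 13392 groups of neighbouring starts (limma adjusted p = 0.836 upstream and 0.839 downstream), in which 0.0224% were called.

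The windows of the 2 Esrrb starts are shown because most of the gene's RNA is divided between them, at chr12:86360867-86361166 upstream and chr12:86421394-86421693 downstream, both on the plus strand (RefSeq, GRCm38.p6).

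Esrrb upstream start: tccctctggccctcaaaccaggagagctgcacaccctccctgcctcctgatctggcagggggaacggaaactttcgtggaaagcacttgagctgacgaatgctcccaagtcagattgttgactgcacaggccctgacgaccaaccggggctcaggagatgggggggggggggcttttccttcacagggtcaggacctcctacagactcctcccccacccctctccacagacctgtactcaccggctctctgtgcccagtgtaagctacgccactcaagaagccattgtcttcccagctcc

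Esrrb downstream start: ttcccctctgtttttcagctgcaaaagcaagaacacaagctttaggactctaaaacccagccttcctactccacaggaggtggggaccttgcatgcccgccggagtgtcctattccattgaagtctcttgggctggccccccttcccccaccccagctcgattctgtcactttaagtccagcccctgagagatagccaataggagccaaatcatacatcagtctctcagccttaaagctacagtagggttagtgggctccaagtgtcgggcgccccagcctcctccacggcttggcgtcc

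Esrrg (ENSMUSG00000026610, chromosome 1, 187608791 to 188214885, plus strand), the ERR gene tied to the oxidative program of heart and slow muscle in mice, had the lowest adjusted p of the 10. It was at 5.31, 6.07, 5.72 and 6.73 FPKM over the sedentary libraries (replicates 1 to 4) and at 5.94, 4.83, 5.04 and 5.12 FPKM over the swimming libraries. Only swimming replicate 1 reached into the sedentary range. The means were 5.96 ± 0.600 and 5.23 ± 0.487 FPKM (SD, n = 4 per group), and the log2 fold change was -0.17 (95% interval -0.38 to 0.04, limma adjusted p = 0.702). It stayed between -0.23 and -0.12 with any 1 library left out. The Esrrg to Esrrb ratio was 1.32 ± 0.145 in sedentary and 1.18 ± 0.0712 in swimming hearts (SD, n = 4 per group), with overlapping values.

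Transcripts of Esrrg from 2 starts, which lie 388.8 kb apart, were listed above 0 in every library. RefSeq places further starts between them, and no listed transcript began there. The upstream start, that of Esrrg-203 (435 codons), held 59.1% to 71.8% of the sum, and the downstream start, that of Esrrg-201 (458 codons), held 28.2% to 40.9%. The upstream start was at 4.10 ± 0.608 FPKM in the sedentary group and 3.42 ± 0.462 FPKM in the swimming group (SD, n = 4 per group, log2 fold change -0.23, limma adjusted p = 0.751). For the downstream start the levels were 1.86 ± 0.112 and 1.81 ± 0.234 FPKM (log2 fold change -0.03, limma adjusted p = 0.955). The lower mean of Esrrg in swimming hearts thus lay mostly in transcripts of the upstream start, without passing the test.

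Their windows, chr1:187608756-187609055 upstream and chr1:187997577-187997876 downstream, plus strand (RefSeq, GRCm38.p6), are shown as a pair that was in use side by side in all 8 libraries.

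Esrrg upstream start: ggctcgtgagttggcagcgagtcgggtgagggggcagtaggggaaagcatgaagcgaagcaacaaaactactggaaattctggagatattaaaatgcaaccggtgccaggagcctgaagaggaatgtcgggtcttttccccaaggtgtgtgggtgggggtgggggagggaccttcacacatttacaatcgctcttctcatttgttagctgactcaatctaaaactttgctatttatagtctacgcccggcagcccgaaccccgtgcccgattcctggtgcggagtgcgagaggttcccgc

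Esrrg downstream start: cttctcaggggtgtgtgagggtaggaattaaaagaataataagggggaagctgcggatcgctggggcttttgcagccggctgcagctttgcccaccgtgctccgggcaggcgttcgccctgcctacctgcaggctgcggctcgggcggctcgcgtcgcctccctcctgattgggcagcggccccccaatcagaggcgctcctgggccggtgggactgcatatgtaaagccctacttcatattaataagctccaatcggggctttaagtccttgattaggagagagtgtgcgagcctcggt

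**Figure D3:**
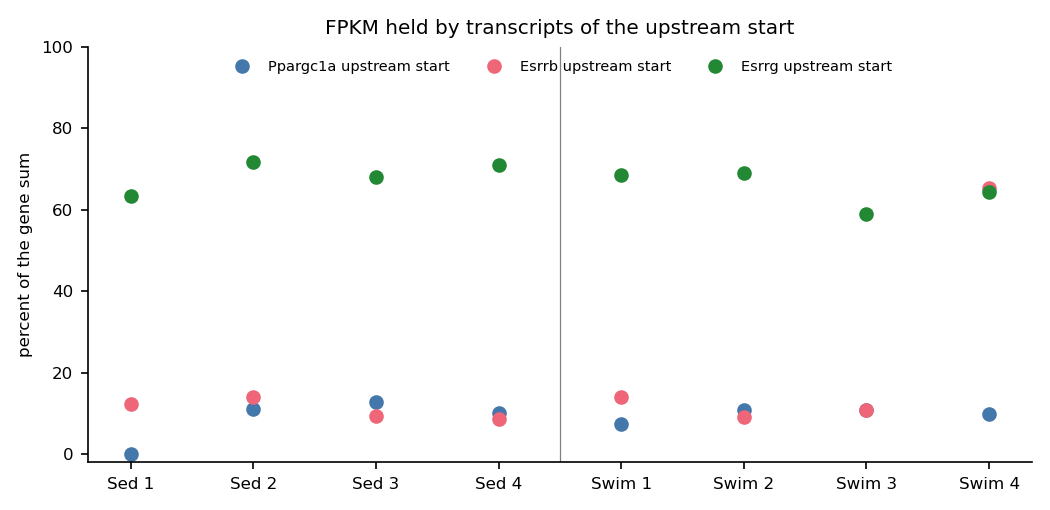
Percent of the gene sum held by transcripts of the upstream start of Ppargc1a, Esrrb and Esrrg in each sedentary (Sed) and swimming (Swim) library. Esrrg keeps 59.1% to 71.8% at its upstream start, Esrrb lies at or below 14.0% except for 65.35% in swimming replicate 4, and Ppargc1a lies at or below 12.8%.

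NRF1 and GABPA, also called NRF2 alpha and not to be confused with the antioxidant factor encoded by Nfe2l2, bind promoters of many nuclear respiratory genes and of Tfam. Nrf1 (ENSMUSG00000058440, chromosome 6, 30047988 to 30153458, plus strand) was at 3.96, 4.49, 3.89 and 4.81 FPKM over the sedentary libraries (replicates 1 to 4) and at 3.79, 4.43, 4.26 and 5.14 FPKM over the swimming libraries. The swimming values reached both below and above the sedentary ones, with means of 4.29 ± 0.440 and 4.41 ± 0.560 FPKM (SD, n = 4 per group) and a log2 fold change of 0.03 (95% interval -0.21 to 0.27, limma adjusted p = 0.954). The sum was divided over 14 transcripts, of which 3 reached a mean of 0.5 FPKM. Nrf1-210 reached 2.44 FPKM in sedentary replicate 1 and 2.93 FPKM in swimming replicate 4, but 0.0283 FPKM in swimming replicate 2. Nrf1-210 and Nrf1-211 encode the same 503 codons, start 14 bases apart and share 3292 bases.

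Gabpa (ENSMUSG00000008976, chromosome 16, 84834925 to 84863779, plus strand), the DNA-binding subunit of GABP, was at 7.95, 4.05, 6.98 and 5.11 FPKM over the sedentary libraries (replicates 1 to 4) and at 5.56, 8.24, 7.58 and 6.94 FPKM over the swimming libraries. Both groups were wide and overlapped, with means of 6.02 ± 1.76 and 7.08 ± 1.14 FPKM (SD, n = 4 per group). The log2 fold change was 0.25 (95% interval -0.23 to 0.72, limma adjusted p = 0.802). It was 0.09 without sedentary replicate 2 and 0.38 without sedentary replicate 1. Exons of Gabpa share 397 bases with Atp5j on the opposite strand, and the use of strand in counting is unknown here, so reads of that stretch could belong to either gene. Atp5j was listed at 5.56 to 12.9 FPKM. The partner genes Gabpb1 and Gabpb2, whose products carry the activating domain of GABP, were at 5.62 ± 0.580 against 4.97 ± 0.440 FPKM and at 3.70 ± 0.147 against 4.19 ± 0.363 FPKM in sedentary and swimming hearts (SD, n = 4 per group, limma adjusted p = 0.721 and 0.688).

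Tfam (ENSMUSG00000003923, chromosome 10, 71225464 to 71238280, minus strand) was the steadiest of the 10, with an SD within groups of 0.0824 on the log2 scale, smaller than that of all but 14.6% of the genes tested. It was at 9.45, 9.11, 8.93 and 8.40 FPKM over the sedentary libraries (replicates 1 to 4) and at 8.46, 8.02, 7.55 and 8.88 FPKM over the swimming libraries. The swimming values leaned low and overlapped with the sedentary ones. The means of 8.97 ± 0.440 and 8.23 ± 0.572 FPKM (SD, n = 4 per group) gave a log2 fold change of -0.12 (95% interval -0.27 to 0.03, limma adjusted p = 0.717). Its main transcript Tfam-201, with 88.9% to 95.8% of the sum, was at 8.05 to 8.44 FPKM in sedentary and at 6.85 to 8.01 FPKM in swimming libraries. It was the only 1 of the 19 transcripts tested for these genes whose groups did not overlap, against 4% of all transcripts, and it did not pass (log2 fold change -0.13, limma adjusted p = 0.877). Of the 19 transcripts 0 passed, against 0.0531% of the 22614 transcripts tested.

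The RefSeq promoter window of Tfam held the motif CCGGAAGT, bound by GABP and other ETS factors, at 47 to 40 bases before the RefSeq start, which lies inside the first exon of Tfam-201. The motif, searched on both strands, was found in 3.89% of 32851 promoter windows of 300 bases. The 30 bases around it, chr10:71238073-71238102 on the minus strand (RefSeq, GRCm38.p6), are shown with the motif in capitals, because both GABP and Tfam are among the regulators.

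Tfam: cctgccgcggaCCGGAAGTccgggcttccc

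The PPAR genes encode fatty acid-sensing receptors that pair with RXR. Ppara (ENSMUSG00000022383, chromosome 15, 85734983 to 85802819, plus strand) was at 10.2, 17.004, 12.3 and 14.0 FPKM over the sedentary libraries (replicates 1 to 4) and at 12.6, 14.4, 14.1 and 6.49 FPKM over the swimming libraries. Swimming replicate 4 was lowest of all, and the other 3 swimming libraries lay within the sedentary range. The means were 13.4 ± 2.88 and 11.9 ± 3.67 FPKM (SD, n = 4 per group), with a log2 fold change of -0.20 (95% interval -0.81 to 0.41, limma adjusted p = 0.871). Without swimming replicate 4 it was 0.05 (limma adjusted p = 0.961).

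The main transcript of Ppara alternated between libraries. Ppara-201 was at 12.0 to 16.7 FPKM in 5 libraries (sedentary replicates 2 to 4 and swimming replicates 1 and 3) and at 0.00525, 0.00553 and 0.205 FPKM in the other 3. In those 3 libraries Ppara-203 was at 10.1 FPKM (sedentary replicate 1), 14.3 FPKM (swimming replicate 2) and 5.03 FPKM (swimming replicate 4), against at most 0.326 FPKM in the 5. The alternation crossed the groups, and neither transcript passed (limma adjusted p = 0.917 for Ppara-201 and 0.926 for Ppara-203). Both encode the same 468 codons, start 567 bases apart and share 2021 bases, with 42 bases found only in Ppara-201. The share of Ppara-201 in the sum ran from 0.038% to 98.0%, a range of 97.97 percentage points. Among 3645 genes with 2 or more transcripts and a mean of at least 5 FPKM, 2.28% had a range above 90 points.

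The RefSeq promoter window of Ppara covers the starts of Ppara-202 and Ppara-203, and Ppara-201 starts 355 bases after Ppara-202. It held a palindrome of the NRF1 kind (GCGC on either side of AT, searched as 1 word that reads the same on both strands) at 31 to 22 bases before the start of Ppara-202, found in 0.971% of the 32851 windows. The 30 bases around it, chr15:85735735-85735764 on the plus strand (RefSeq, GRCm38.p6), lie between the starts that alternated and carry the motif in capitals.

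Ppara: gggctcggtgGCGCATGCGCgcggactagg

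Among the 14 windows available for 9 of the regulators those were the 2 matches to any of the 5 motifs, and the match is a description of letters, not of binding. The other motifs searched on both strands were TNAAGGTCA of the ERR receptors (in 1.28% of all windows), the PPAR element of 2 AGGTCA copies with any base between them (0.0396%) and TGACGTCA of CREB (1.79%).

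Ppard (ENSMUSG00000002250, chromosome 17, 28232700 to 28301474, plus strand), the ubiquitous PPAR, was represented by a single transcript and was at 3.58, 4.16, 4.37 and 4.65 FPKM over the sedentary libraries (replicates 1 to 4) and at 3.87, 4.33, 4.32 and 3.81 FPKM over the swimming libraries. The swimming values lay inside the sedentary range. The means were 4.19 ± 0.456 and 4.08 ± 0.282 FPKM (SD, n = 4 per group), and the log2 fold change was -0.03 (95% interval -0.23 to 0.18, limma adjusted p = 0.952). Ppara exceeded Ppard in every library, by 1.70 to 4.09 times. Pparg, the adipocyte PPAR, was at 5.16 FPKM in the sedentary group and 4.88 FPKM in the swimming group on average (limma adjusted p = 0.873).

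**Figure D4:**
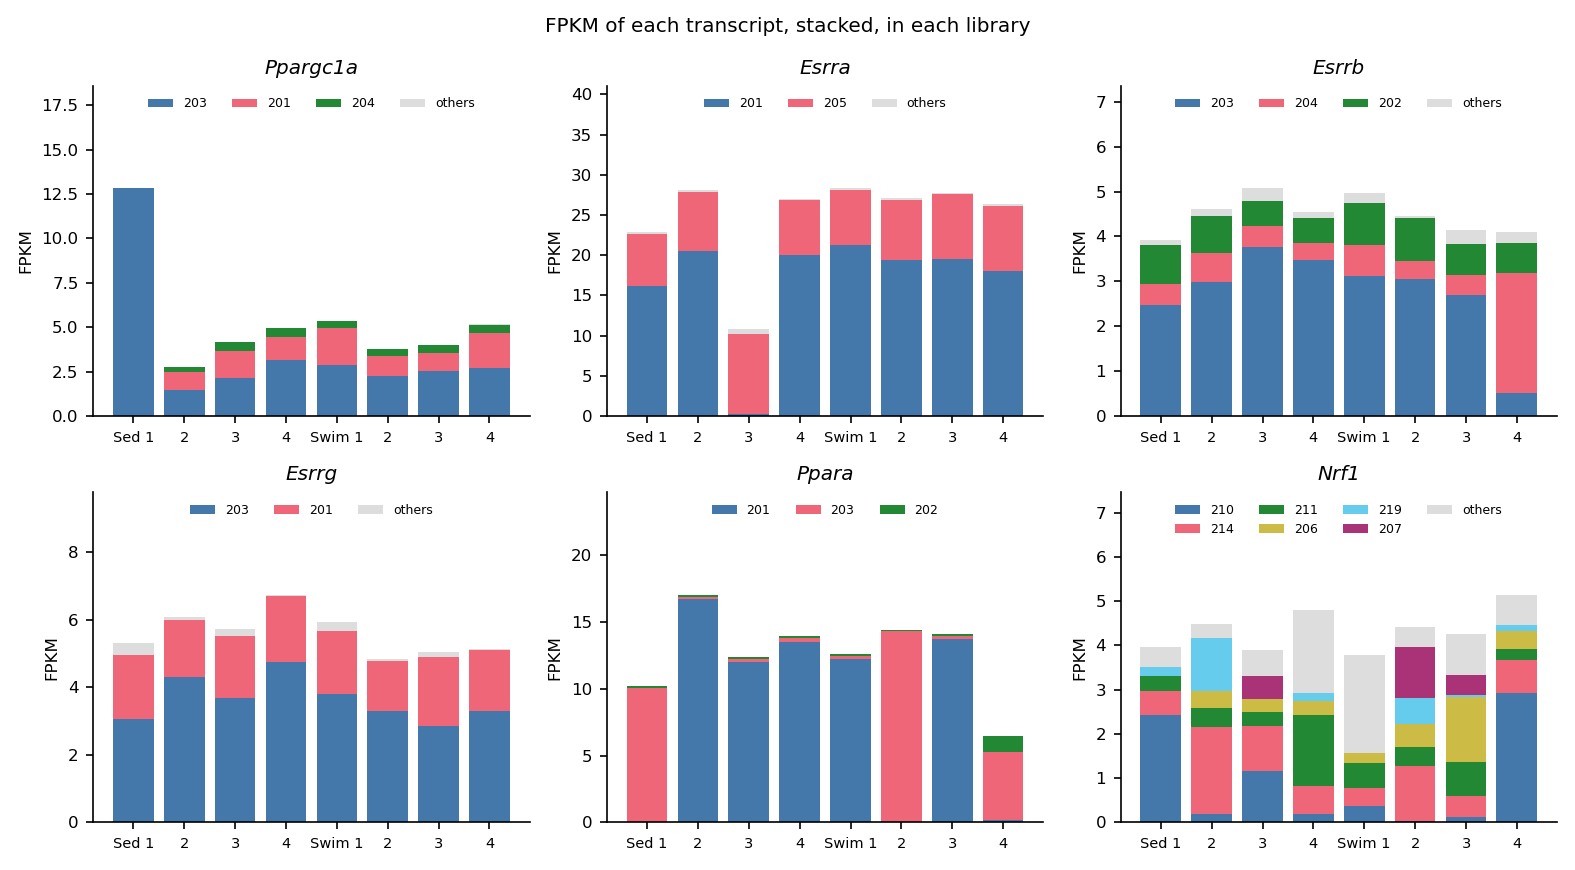
FPKM of each transcript (colours, named by the number after the gene symbol, with minor ones in grey) stacked to the gene sum in each library, for 6 of the regulators. Ppara alternates between transcripts 201 and 203, Esrra has almost no transcript 201 in sedentary replicate 3 (0.178 FPKM), Esrrb is mainly transcript 204 in swimming replicate 4, and Ppargc1a in sedentary replicate 1 is almost all transcript 203 (99.98%).

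The share of the most abundant transcript was also tested, over 8348 genes with 2 or more transcripts. Of 9 regulators in that test 0 passed, against 0.0359% of all genes. The lowest unadjusted p was that of Gabpa-201, whose share was at least 95.3% in every library (limma adjusted p = 0.943). Ppargc1a-203, Esrra-201, Esrrb-203, Nrf1-210 and Ppara-201 each varied by 48.9 to 97.97 percentage points between libraries, against a median of 27.2 points for all 8348 genes. The range was wider than in 70.6% of those genes for Ppargc1a, 78.7% for Nrf1 and 80.3% for Esrrb. It was wider than in 86.1% for Esrra and 97.2% for Ppara. Esrrg-203, Gabpa-201, Tfam-201 and Ppargc1b-202 varied by 20.02 points or less.

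Receptors and partners of the regulators gave no call. Of 17 listed genes 16 were tested, 6 with a positive and 10 with a negative log2 fold change, 0 were called and the median was -0.03, beside 0.03 over all genes, of which 58.7% were positive. Perm1, a muscle regulator induced by PGC-1 and ERR, was at 79.5 FPKM in the sedentary group and 77.9 FPKM in the swimming group. Nr4a1, an immediate-early orphan receptor, reached 32.2 and 19.0 FPKM in replicates 3 and 4 of the sedentary group, while the other 6 libraries gave 1.29 to 3.63 FPKM (limma adjusted p = 0.729). Of 18 coactivators and corepressors tested, 8 were positive and 10 negative, with a median of -0.05 and 0 called. Tbl1xr1, an exchange factor for corepressors, had the smallest p among them, at 13.3 ± 3.57 against 18.7 ± 1.79 FPKM (SD, n = 4 per group, limma adjusted p = 0.655).

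Upstream regulators of Ppargc1a gave no call. Of 29 tested, 13 were positive and 16 negative, with a median of -0.03, and the groups did not overlap in 4, beside 4.83% of all genes. Subunit genes of AMP-activated kinase, which phosphorylates PGC-1 alpha, were among these. Prkab2 was at 12.97 ± 0.848 against 8.30 ± 1.52 FPKM, sedentary against swimming (log2 fold change -0.63, limma adjusted p = 0.433). Prkaa2, the catalytic subunit of muscle, was at 42.2 ± 1.56 against 38.6 ± 0.945 FPKM (limma adjusted p = 0.649). Ppp3ca, a catalytic subunit of calcineurin, was at 12.2 ± 0.264 against 13.7 ± 0.743 FPKM (limma adjusted p = 0.610), each as SD with n = 4 per group.

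Genes controlled by PPAR receptors were spread on both sides of 0. Of 35 listed, 34 were tested, with 18 positive and 16 negative and a median of 0.00 (-0.04 under median-of-ratios scaling, with 13 positive and 21 negative). Unadjusted p-values below 0.05 were found for 4, of which 3 had higher means in swimming hearts, and 0 were called. Over all genes 4.93% were higher and 2.43% lower at that p. In 2 of the 34 the groups did not overlap, beside 4.83% of all genes. Pdk4, a kinase that restrains pyruvate oxidation and a classic PPAR target, was at 113.1, 55.5, 74.4 and 81.7 FPKM over the sedentary libraries (replicates 1 to 4) and at 170.4, 116.4, 165.0 and 147.0 FPKM over the swimming libraries. All swimming values lay above all sedentary ones (log2 fold change 0.91, SE 0.216, limma adjusted p = 0.544). The mitochondrial thioesterase gene Acot2 was at 26.3 ± 1.56 against 34.6 ± 5.78 FPKM and also did not overlap (limma adjusted p = 0.610). Hadhb, a subunit of the mitochondrial trifunctional protein of fatty acid oxidation, was the 1 gene with a lower mean among the 4, at 58.5 ± 7.26 against 46.6 ± 7.49 FPKM, with overlap (SD, n = 4 per group, limma adjusted p = 0.659).

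Log2 fold changes of ERR target genes were more often negative than positive. Of 34 tested, 24 were negative and 10 positive, with a median of -0.05, and 0 passed. Unadjusted p-values below 0.05 were found for 4 (7.36% of all genes), all with lower means in swimming hearts: Cycs (cytochrome c), Cox5a (cytochrome oxidase), Ogdh (2-oxoglutarate dehydrogenase) and Suclg1 (succinyl-CoA ligase). Ogdh was at 327.0 ± 23.7 against 254.5 ± 41.5 FPKM (SD, n = 4 per group, limma adjusted p = 0.610), without overlap. In 3 of the 34 the groups did not overlap, beside 4.83% of all genes. Targets of NRF1 and GABP showed 17 negative and 3 positive of 20 tested, with a median of -0.08, 6 at an unadjusted p below 0.05, all of them lower (2.43% of all genes), 4 without overlap (4.83% of all genes) and no call. Besides Cycs, which is on both lists, these included the copper chaperone gene Cox17 at 43.7 ± 3.11 against 37.7 ± 1.19 FPKM and the import receptor gene Tomm70a at 22.2 ± 0.676 against 20.1 ± 0.885 FPKM (limma adjusted p = 0.606 and 0.619). Both list medians stayed negative under all 17 alternatives, from -0.10 to -0.02 for the ERR targets and from -0.12 to -0.06 for the NRF1 and GABP targets. Under median-of-ratios scaling 29 of 34 and 17 of 20 were negative, while the median of all genes moved from 0.03 to -0.0041. The lists are not separate, since Cox5b and Sdhb are on both as well as Cycs. Esrra, a regulator here, is itself counted among the ERR targets. Beside these lists, ventricular cardiomyocyte markers had 7 negative of 12 and a median of -0.04, and fibroblast markers had 7 positive of 8 and a median of 0.12, with summed levels of 245.4 to 300.4 FPKM in sedentary and 280.6 to 312.4 FPKM in swimming libraries. Macrophage markers were positive in 9 of 9. The part of these markers in the list medians was not tested.

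Genes that maintain and transcribe mitochondrial DNA with TFAM gave 13 positive and 8 negative of 21 tested, a median of 0.03 (-0.0096 under median-of-ratios scaling) and 0 called. Mterf3, a brake on mitochondrial transcription in mice, was the 1 gene of the 21 without overlap, beside 4.83% of all genes. It was at 7.32 ± 0.470 against 6.06 ± 0.426 FPKM (SD, n = 4 per group, limma adjusted p = 0.596). Polrmt, the mitochondrial RNA polymerase, was at 2.80 against 2.38 FPKM (limma adjusted p = 0.866). The 13 genes of mitochondrial DNA together held 19.1% to 20.8% of the FPKM total in sedentary and 13.4% to 18.5% in swimming libraries. The groups did not overlap, in a measure chosen after its values were seen, so no p-value is given for it. The most abundant gene, mt-Co1, was at 30804 to 32015 FPKM in sedentary and at 28904, 12597, 20079 and 28522 FPKM in swimming replicates 1 to 4. Singly, 0 of the 11 tested were called, with 5 positive and 6 negative. In every library mt-Nd4 and mt-Nd6 were at or below 0.195 FPKM, so the share of the 13 genes rests on unevenly listed values. Single libraries stood apart in other genes. The gene mt-Nd3 was at 27.2 FPKM in swimming replicate 2 and at 1318 to 2135 FPKM elsewhere. For mt-Co3 the values were 870.7 FPKM in swimming replicate 2 and 1.26 to 4.28 FPKM elsewhere. For mt-Nd4l they were 1443 FPKM in swimming replicate 3 and at most 0.164 FPKM elsewhere. In the same 2 libraries mt-Co1 was lowest, and a link between these values was not tested.

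**Figure D5:**
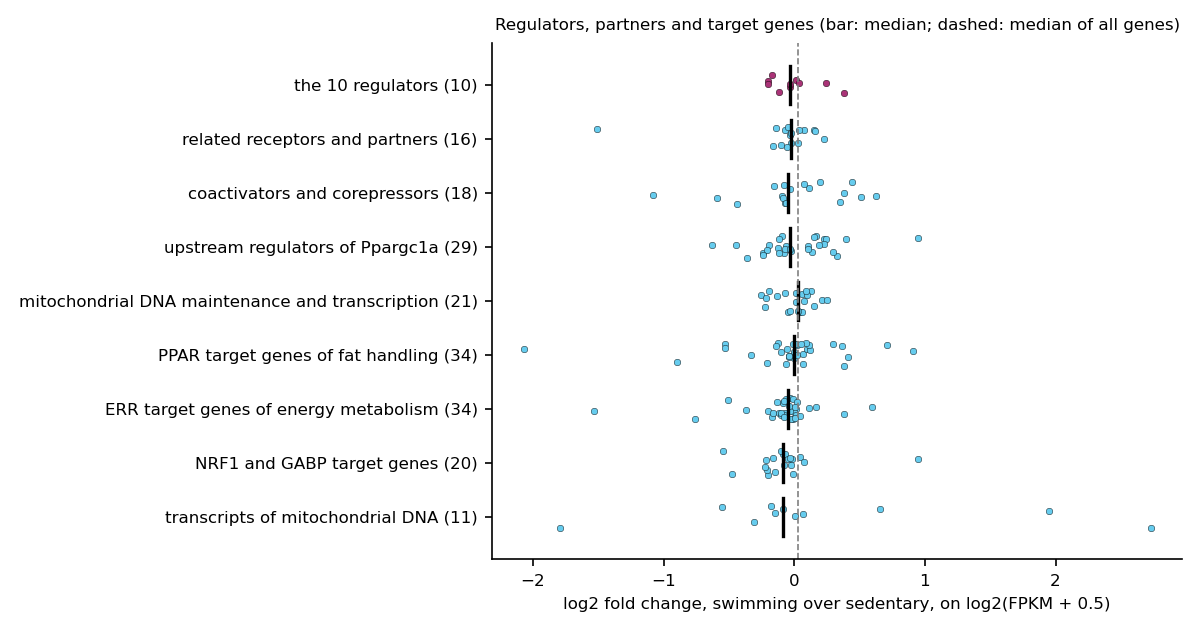
Log2 fold change, swimming over sedentary, of each tested gene (points) in the regulators and the 8 lists of partners and targets, with the number tested in brackets, a bar at the median of each list and a dashed line at the median of all genes (0.03). The regulators lie between -0.20 and 0.38, and the medians of the ERR (-0.05) and the NRF1 and GABP target lists (-0.08) lie left of the dashed line.

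Across the 8 libraries the mean of log2(FPKM + 0.5) over the ERR targets was 7.40 in sedentary replicate 1, the library with the highest Ppargc1a, and between 7.31 and 7.65 in the others. That of the PPAR targets was 5.30 there and between 5.002 and 5.46 in the others. Both lists lay inside the range of the other libraries in the library where Ppargc1a was listed at its highest. Brown adipocyte markers summed to 13.9 FPKM in that library and to 12.5 to 16.6 FPKM in all. Most of this was Cidea, at 9.60 FPKM there and at 9.09 to 12.4 FPKM in all. On the same list, Dio2 was highest there, at 1.74 FPKM against 0.451 to 1.59 FPKM elsewhere. Prdm16 was lowest there, at 2.52 FPKM against 2.78 to 3.06 FPKM elsewhere. The brown fat gene Ucp1 was at 0.0179 FPKM there, and it reached 0.540 FPKM in sedentary replicate 4. The part of these markers in the Ppargc1a value was not tested.

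Patterns across the 8 libraries are given as descriptions over few points that share depth and scaling. The genes most like Ppargc1a were Ppm1b, Nsun3 and Vamp3, with Pearson's r of 0.981, 0.979 and 0.949 over 8 libraries, and 0.940, 0.963 and 0.770 without sedentary replicate 1. Those nearest to Ppara were Zfp11, Ik and G3bp1 (r of 0.963, 0.946 and 0.940, and 0.972, 0.772 and 0.792 without swimming replicate 4). Paqr4 and Tgfb1 were near to Esrrb (r of 0.955 for both, and 0.958 and 0.932 without sedentary replicate 1). Among the 45 pairs of regulators r ran from -0.816 for Esrrg with Gabpa to 0.698 for Ppargc1b with Esrra. Ppargc1b and Esrra were both lowest in sedentary replicate 3, at 2.72 and 10.9 FPKM. Ppargc1a had r of -0.05 with Esrra, -0.11 with Esrrg and -0.50 with Ppara. These values include sedentary replicate 1, where Ppargc1a was at 12.8 FPKM. For pairs of regulators, r without single libraries is not given here.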

How the data were processed

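RNA from 8 mouse heart libraries, 4 per group, was depleted of ribosomal RNA and reverse transcribed with random hexamers, per the labels' protocols. The deposited values are FPKM per transcript, computed by the authors, per the file headers. HISAT2, Subread, Salmon 0.8.2, STAR 2.5.1a and featureCounts 1.4.6-p5, with build mm10, are named in the submitters' processing notes. The sources used here do not say which tool made the FPKM or whether counting used strand. GENCODE M21 named 45676 of 51169 transcripts, and 5427 assembled transcripts without a gene name, with 11.3% to 12.5% of the FPKM total, stayed out of the gene sums. Reads shared by transcripts of a gene are divided by estimation, so values of single transcripts are less certain than sums.

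Transcripts were summed to 18114 genes. For 23 symbols with more than 1 identifier, only the identifier with the larger sum was kept. Genes with a mean of at least 0.5 FPKM entered a limma fit of log2(FPKM + 0.5) (limma 3.58.1, R 4.3.3, trend, two-sided, 8 libraries, no covariates), with Benjamini-Hochberg adjustment over all genes tested and a call at 0.05. Log2 fold changes on this scale understate changes of low genes. Transcripts, shares of the most abundant transcript (as a log2 ratio to the others) and groups of starts within 1000 bases were tested likewise, the last chosen after seeing the data. The scripts were tested on simulated data. Low values matched whole-read steps in 13.0% to 19.9% of ratios between libraries (28 pairs, within 0.02 on the log2 scale), too few to recover reads, so no count test was run.

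Members and lists were chosen with earlier results of these data known. Named were all 10 regulators, their transcripts with a mean of at least 0.5 FPKM, up to 4 genes of each list by smallest p, and the 3 genes most like Ppargc1a, Ppara and Esrrb. For Esrrb, 1 of these is not reported here. Pparg, Perm1, Nr4a1, Cfd, Adipoq, Polrmt and single genes of mitochondrial DNA were named after their values were seen. Tried as alternatives were other pseudocounts, filters and scalings, array weights, a replicate block, leaving out each library, and protein-coding transcripts alone.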

Additional observations from a re-analysis of the deposited data

Results flagged for a closer look

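In 6 of 38 groups of 4 values of single transcripts, 1 library stood apart from the other 3 of its group by Dixon's criterion at the 95% level, while 0 of 20 groups of gene sums did. For independent, normally distributed values about 1 in 20 groups would stand apart. Transcripts of the same gene are parts of 1 sum and are not independent. The rate over all transcripts is not given here, so the count cannot be read as particular to the regulators. In swimming replicate 4, Esrrb-203 was lowest at 0.503 FPKM, Esrrb-204 was highest at 2.68 FPKM and Nrf1-210 was highest at 2.93 FPKM. In sedentary replicate 1, Ppara-203 was highest at 10.1 FPKM and Ppargc1a-203 was highest at 12.8 FPKM. In sedentary replicate 4, Nrf1-211 was highest at 1.59 FPKM. The cause of these values was not tested.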

How the results depend on the processing

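The count of genes called was 2, and it was 1 with a pseudocount of 0.1, 1 with quantile normalization and 0 to 5 with 1 library left out. The count of transcripts called was 12, and it was 7 with a filter at 1 FPKM, 3 for groups of starts and 7 to 25 with 1 library left out. The count of shares called was 3, and it was 6 with a pseudocount of 0.1, 5 without the filter and 1 to 9 with 1 library left out. The replicate numbers did not pair the libraries (correlations of same-numbered deviations from -0.0552 to 0.0184), and with the replicate block the counts were 0 for genes, 0 for transcripts and 0 for shares. Of the 10 regulators 0 were called under any of 17 alternatives, and the lowest adjusted p (limma) was 0.564, for Esrrg without sedentary replicate 1. The log2 fold changes of Ppargc1b and Nrf1 turned to -0.0233 and -0.0025 with median-of-ratios scaling and to -0.0202 and -0.0031 with quantile normalization. With 1 library left out the log2 fold change ran from -0.47 to 0.20 for Ppargc1a, -0.11 to 0.10 for Ppargc1b, -0.10 to 0.0164 for Esrrb, -0.0367 to 0.0947 for Nrf1, -0.32 to 0.0515 for Ppara and -0.0948 to 0.0180 for Ppard, while Esrra, Esrrg, Gabpa and Tfam kept their sign. The 8 lists had 0 calls under the alternatives run for them, which left out protein-coding transcripts alone. The cause of these shifts was not tested. Absolute depth is unknown, so no limit of detection is given.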
